A study of Galdieria sulphuraria with 9 samples.

Results

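*Galdieria sulphuraria* is a unicellular red alga of hot, acidic springs, and the study treated 28 °C as a cold stress and the higher temperatures as its ordinary range. Described here is the rewarming step of its temperature timeline, in which cultures that had been held at 28 °C for 48 h were moved to 46 °C and sampled 48 h later. It was represented by the 2 libraries of sampling H-46 (46 °C, cultures A and C) and the 3 libraries of the preceding sampling C-28.1 (28 °C, cultures A, B and C), which are 5 of the 9 libraries of the series, chosen by their labelled sampling. All cultures were wild type cells of strain 074W, grown photoautotrophically in liquid 2xGS medium under constant light and shaking. Each had first been kept at 42 °C for 2 weeks (sampling H-42), and after H-46 each was returned to 28 °C for another 48 h (sampling C-28.2). H-46 holds no library of culture B. Time in culture, the preceding cold period and temperature changed together in this step, so their parts in a change cannot be told apart. Every direction given here rests on the temperatures in the GEO labels of the libraries. A supplementary list of the study heads its heat and cold columns the other way round for most genes, and the count files alone cannot settle which naming is right.

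Cells that move between temperatures have to readjust the rates of translation and metabolism, the fluidity of their membranes and the folding of proteins and RNA. In plants and cyanobacteria, cold commonly raises RNA-binding proteins and RNA helicases that loosen RNA structure, and fatty acid desaturases that keep membranes fluid, whereas heat raises chaperones through heat shock transcription factors. A sampling 48 h after a shift reads the acclimated state rather than the first minutes of the response. The comparison thus asks which transcripts of an alga that lives in heat stood higher or lower after 2 days of heat than after 2 days of cold.

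The 5 libraries held 4389066 to 8779063 counted reads on 6538 genes, of which 99 had no count in any of them. Genes were kept where the counts were high enough to test, which left 6264. Levels below are in CPM, a gene's reads relative to the total of its library after scaling by the trimmed mean of M-values (TMM), and log2 fold changes are H-46 minus C-28.1 with their standard error (SE) from edgeR's quasi-likelihood fit over all 9 libraries. A gene was called higher or lower where the Benjamini-Hochberg adjusted p was below 0.01 and the fold change above 2.5. The 3 C-28.1 libraries differed among themselves by a root mean square of 0.28 to 0.44 on the log2 scale, and the 2 H-46 libraries by 0.69. Cultures A and C thus stood further apart in H-46 than in C-28.1 (0.44). They were nearly as far apart in the later cold sampling C-28.2 (0.63). A list of genes is described by its count of calls and its median, to be read against all tested genes, of which 6.67% were called higher and 6.61% lower, with a median of 0.05. The list members come from the 1157 tested genes with a product entry. Of these 8.04% were called higher and 8.3% lower, with a median of 0.18.

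Rewarming changed a broad part of the transcriptome, with rises and falls in nearly equal number. Of the tested genes 832 (13.3%) were called, 418 higher (6.67%) and 414 lower (6.61%). The adjusted p alone was passed by 1613 genes (25.8%), and an unadjusted p of 0.05 by 3223 (51.5%). The median fold change was 3.50 among the risers and 3.29 among the fallers, and 43 genes rose and 26 fell by more than 8-fold. The called risers took up 2.70 to 3.03% of the scaled counts of tested genes in the C-28.1 libraries, and 14.3% and 15.1% in the H-46 libraries. In turn, the called fallers went from between 22.9% and 24.2% of these counts to 7.76% and 5.64%. With library totals in place of TMM, which moved the median of all tested genes up by 0.18 on the log2 scale, 601 genes were called higher and 308 lower, so the even split depends on the scaling. Of the 132 called genes examined singly, 16 lost their call on that scale, all of them fallers, with log2 fold changes of -1.16 to -1.32. Those described below are Gs14610, Gs11340, L23Ae (Gs06940), Gs32860, Gs37260, FtsZ (Gs20120), Gs47930, Gs52990, Gs48480, Gs16100, Gs34230 and Gs34210. Leaving out 1 library at a time gave between 672 calls (without C-28.1 culture B) and 1148 (without H-46 culture A).

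Largest rises and falls, here and below, were ranked among called genes with at least 10 counts in each of the 5 libraries. These genes also had to show no overlap between H-46 and C-28.1. The 3 largest rises so ranked belonged to genes with no assigned function. Gs54440, which has no product name, had 4.11, 2.52 and 3.35 CPM in C-28.1 cultures A, B and C. At 46 °C it had 782 and 1146 CPM in cultures A and C, a log2 fold change of 8.21 (SE 0.53, adjusted p = 4.82e-06 by edgeR's quasi-likelihood test). The hypothetical protein Gs51030 went from 21.2, 16.0 and 25.8 CPM to 4429 and 4609 CPM (log2 fold change 7.75, SE 0.32). Both transcripts thus had few reads in all 3 cold libraries and many in both warm ones. Another hypothetical protein, Gs10210, moved from 31.1, 21.3 and 30.0 CPM to 3236 and 6555 CPM (log2 fold change 7.48, SE 0.43). The next largest rises among genes without a product name were Gs31400 (4.86), Gs62730 (4.48), Gs65870 (4.36), Gs11780 (4.34) and Gs22710 (3.87), given as log2 fold changes. In each of these 8 genes both H-46 libraries lay above all 3 C-28.1 libraries, which the ranking required. Such a separation was common, since it held for 61.9% of all tested genes, 31.3% upward and 30.6% downward.

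**Figure D1:**
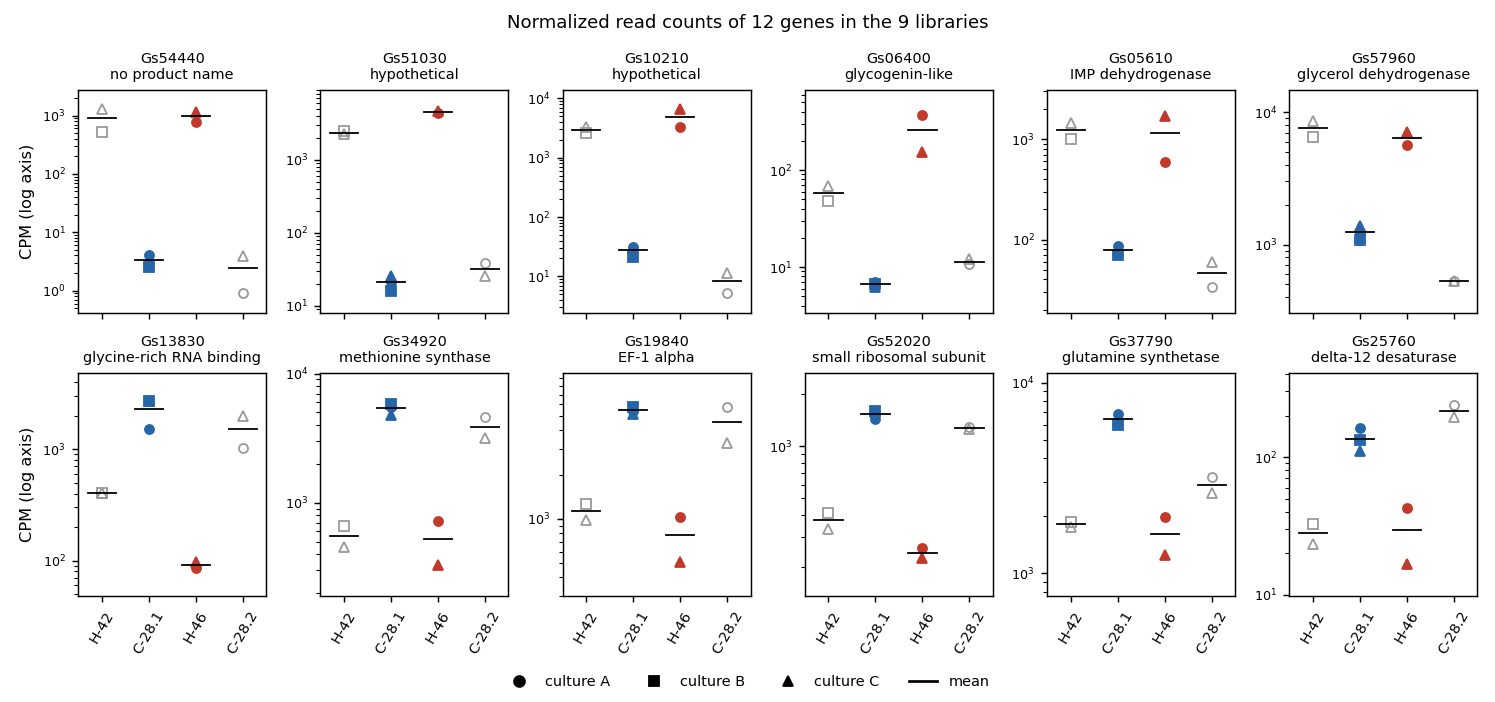
Normalized read counts (CPM, log axes that differ between panels) of 12 genes in the 9 libraries, by sampling in the order of the timeline, with cultures as symbols and the sampling mean as a line; filled symbols are the rewarming step. In the upper 6 genes both H-46 libraries lie above the 3 C-28.1 libraries and in the lower 6 below them, from 8.21 for Gs54440 to -4.65 for Gs13830 on the log2 scale. The rule that picked the largest changes required this separation of all of them but Gs37790 and Gs25760.

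Among genes with a product name, the 10 largest rises included a glycogenin-like protein, 3 dehydrogenases of small carbon compounds, an acetate transporter, IMP dehydrogenase, an amino acid permease and an amine oxidase. Gs06400 is similar to glycogenin, the protein that primes glycogen in animals and yeasts. It had 7.08, 6.73 and 6.22 CPM in the cold and 367 and 152 CPM after rewarming, a rise of 5.28 on the log2 scale (SE 0.35, adjusted p = 5.16e-06). Its levels in the 3 cold libraries were nearly alike, while the 2 warm cultures differed from each other, culture A being the higher. IMP dehydrogenase (Gs05610), which takes the first step from IMP toward guanine nucleotides, rose from 87.3, 70.2 and 78.5 CPM to 590 and 1709 CPM (log2 fold change 3.87, SE 0.41). Here culture C was the higher of the warm pair.

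A putative acetate transporter (Gs57950) and 2 glycerol dehydrogenases, which convert glycerol and dihydroxyacetone into each other, have neighbouring gene numbers, and all 3 rose. The transporter had 281, 203 and 261 CPM at 28 °C and 1292 and 3211 CPM at 46 °C (log2 fold change 3.18, SE 0.36, adjusted p = 0.000105). Glycerol dehydrogenase Gs57960 went from 1225, 1090 and 1391 CPM to 5607 and 7060 CPM (2.36, SE 0.24), which made it 1 of the 4 called risers with the most CPM. The second, Gs57980, went from 99.1, 78.8 and 95.7 CPM to 642 and 446 CPM (2.58, SE 0.22). An alcohol dehydrogenase between them, Gs57970, was expressed strongly throughout, at 5332, 3467 and 4657 CPM in the cold and 8288 and 7709 CPM in the heat, and was not called (log2 fold change 0.83, SE 0.25, adjusted p = 0.0185). Formate dehydrogenase (Gs60980), which oxidises formate to CO2, rose from 180, 131 and 159 CPM to 869 and 995 CPM (log2 fold change 2.58, SE 0.36). In the list for trehalose, polyol and starch metabolism, 3 of 19 members (15.8%) were called higher, against 6.67% of all tested genes, and none lower. The 3 were Gs06400 and both glycerol dehydrogenases. The median of the list was 0.40, against 0.05 for all tested genes.

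Genes of nitrogen and amino acid metabolism were called in both directions. Of the 17 members 3 rose and 7 fell, 58.8% in all against 13.3% of all tested genes, and the median was -0.03. The amino acid/auxin permease Gs49920, of a family that imports amino acids in plants, rose from 11.9, 14.8 and 13.9 CPM to 198 and 174 CPM (log2 fold change 3.77, SE 0.24, adjusted p = 4.82e-06). Close to it in gene number, primary-amine oxidase (Gs49900), which releases ammonium from amines, went from 51.6, 31.1 and 50.9 CPM to 358 and 190 CPM (2.63, SE 0.31). The third riser was shikimate kinase (Gs49560), an enzyme of aromatic amino acid synthesis, with a log2 fold change of 1.54. The fallers were led in level by glutamine synthetase (Gs37790), which binds ammonium into glutamine. It had 6880, 6011 and 6392 CPM in the cold and 1969 and 1243 CPM in the heat, a fall of 2.00 on the log2 scale (SE 0.27, adjusted p = 0.000294), with no overlap between the samplings. Glutamate dehydrogenase (Gs36460, log2 fold change -2.15), 3-isopropylmalate dehydrogenase of leucine synthesis (Gs34040, -2.26), an alanine-glyoxylate or serine-pyruvate transaminase (Gs31580, -2.15), chorismate synthase (Gs21930, -1.61), glutamate decarboxylase (Gs16100, -1.48) and threonine 3-dehydrogenase (Gs37260, -1.42) fell as well. Glutamate decarboxylase lost its call without H-46 culture C (-1.14, adjusted p = 0.0174) or C-28.1 culture A (-1.26, adjusted p = 0.0127), as did threonine 3-dehydrogenase without H-46 culture A, where it fell just short of 2.5-fold (-1.32). The list thus did not move 1 way, the permease and the amine oxidase being higher and most of the called enzymes of assimilation and synthesis lower.

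Most members of the detoxification and DNA repair lists were not called. Glutathione S-transferase Gs28590, which attaches glutathione to reactive compounds, went from 6.85, 4.33 and 5.58 CPM to 30.3 and 78.4 CPM (log2 fold change 3.31, SE 0.37). It and a second glutathione S-transferase, Gs24120 (1.53), were the only called members of the redox list, 2 of 12 (16.7% against 6.67% of all tested genes called higher). The call of Gs24120 was lost without H-46 culture C (0.91, adjusted p = 0.0108). A bifunctional polynucleotide phosphatase/kinase (Gs42810), an enzyme that tidies broken DNA ends, rose from 19.0, 19.0 and 13.2 CPM to 61.6 and 120 CPM (2.41, SE 0.33). The excision repair protein ERCC-1 (Gs41840) rose from 35.9, 32.1 and 32.4 CPM to 124 and 159 CPM (2.08, SE 0.22, adjusted p = 7.97e-05). Uracil-DNA glycosylase (Gs48480) went the other way, from 96.6, 118 and 123 CPM to 32.9 and 49.3 CPM (-1.45, SE 0.22), a call that was lost without H-46 culture A (-1.21, adjusted p = 0.00123). ERCC-1 and the glycosylase were the called members of the 17 in the DNA repair list, 11.8% against 13.3% of all tested genes.

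Of the chaperones, which help proteins fold and include classic products of heat shock, the 7 with a product name gave no call after 48 h at 46 °C. None of the 7 listed members passed in either direction by edgeR, where 13.3% of all tested genes did, 2 had an adjusted p below 0.05, and their median was 0.50 with a range from -0.20 to 1.20. The chaperonin GroES (Gs07100), a lid of the folding chamber in bacteria and organelles, had 1471, 1894 and 1760 CPM in the cold and 2245 and 2573 CPM in the heat (log2 fold change 0.50, SE 0.22, adjusted p = 0.0887). Both warm libraries were above the cold ones, by 0.61 in culture A and 0.55 in culture C on the log2 scale, and the rise did not pass the test. Prefoldin Gs01860 had the highest value of the list (1.20, adjusted p = 0.00817), below the 2.5-fold minimum. The heat shock transcription factor of the list for transcription and chromatin, Gs29480, had 69.7, 67.4 and 62.7 CPM at 28 °C and 131 and 168 CPM at 46 °C. Its change of 1.17 (SE 0.17, adjusted p = 0.000474) also remained under the fold minimum, although with library totals as the scale it was called (1.34). The 7 members are prefoldins, GroES and DnaJ-type proteins, those with a product name in the sources used here. They do not represent every chaperone gene of the alga. Homologues of human HSPA heat shock proteins, which the study lists as present in it, are not among them.

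In protein turnover and the maturation of RNA few genes were called, at shares near those of all tested genes. Of 22 members of the proteasome and ubiquitin list 2 (9.09%) were called higher, against 6.67% of all tested genes, and none lower, with a median of 0.37. In 12 of the 22 both warm libraries were above every cold one, which held for 31.3% of all tested genes. Ubiquitin-conjugating enzyme E2 (Gs53610), which passes ubiquitin on to substrates, went from 30.4, 35.9 and 43.7 CPM to 96.8 and 162 CPM (log2 fold change 1.81, SE 0.29). The ubiquitin ligase synoviolin (Gs07260), known from the degradation of misfolded proteins at the endoplasmic reticulum in yeast and animals, went from 43.6, 48.6 and 49.8 CPM to 117 and 127 CPM (1.36, SE 0.17). It lost its call without C-28.1 culture A (1.31) and without H-46 culture C (1.30). In ribosome and tRNA maturation 2 of 23 (8.7%) were called higher and none lower (median 0.38), namely tRNA-intron endonuclease Gs24350 (1.40), which cuts introns out of tRNA, and the rRNA processing protein RimM Gs01240 (1.35). Both fell below the fold minimum without H-46 culture C (1.30 and 1.15), and RimM also without C-28.1 culture B (1.25) or culture C (1.26) and with culture as a replicate block (1.27). Synoviolin, the endonuclease and RimM thus lay near the fold minimum, while E2, at 3.52-fold, lay at about the median of all called risers.

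Of the 21 lists, that of the cytosolic ribosomal proteins, the building blocks of the ribosome, had the largest share of calls. All 15 cytosolic ribosomal proteins with a product name had lower CPM in both H-46 libraries than in every C-28.1 library. Such a downward separation held for 30.6% of all tested genes. Of the 15, 11 (73.3%) were called lower, against 6.61% of all tested genes. The median of the 15 was -1.56, with a range from -2.67 to -0.83. Ribosomal protein S16e (Gs52020) had 1440, 1605 and 1587 CPM in the cold and 260 and 226 CPM in the heat (log2 fold change -2.67, SE 0.23, adjusted p = 2.27e-05). L37e (Gs50890) had 985, 1128 and 995 CPM and then 174 and 197 CPM (-2.48, SE 0.23). Together the 15 genes made up 1.07 to 1.34% of the scaled counts in C-28.1 and 0.344% and 0.477% in H-46. The count of 11 became 9 without H-46 culture A and 15 without H-46 culture C, and the calls of S17 (Gs06000, -1.27) and L23Ae (Gs06940, -0.93) were among those lost in the first case. L23Ae also lost its call, by its p or its fold, in each of the fits that left out 1 C-28.1 or H-42 library, with at least 10 counts in every library, in the 5 libraries alone (adjusted p = 0.0204), with culture as a replicate block (-1.28) and in cultures A and C alone with that block (-1.29). Product names were taken from genes that the study had listed as alternatively spliced or differentially expressed in these same samples. Neither a list's share of calls nor its direction here is therefore independent evidence. Of all 384 tested list members 5.47% were called higher and 14.1% lower.

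**Figure D2:**
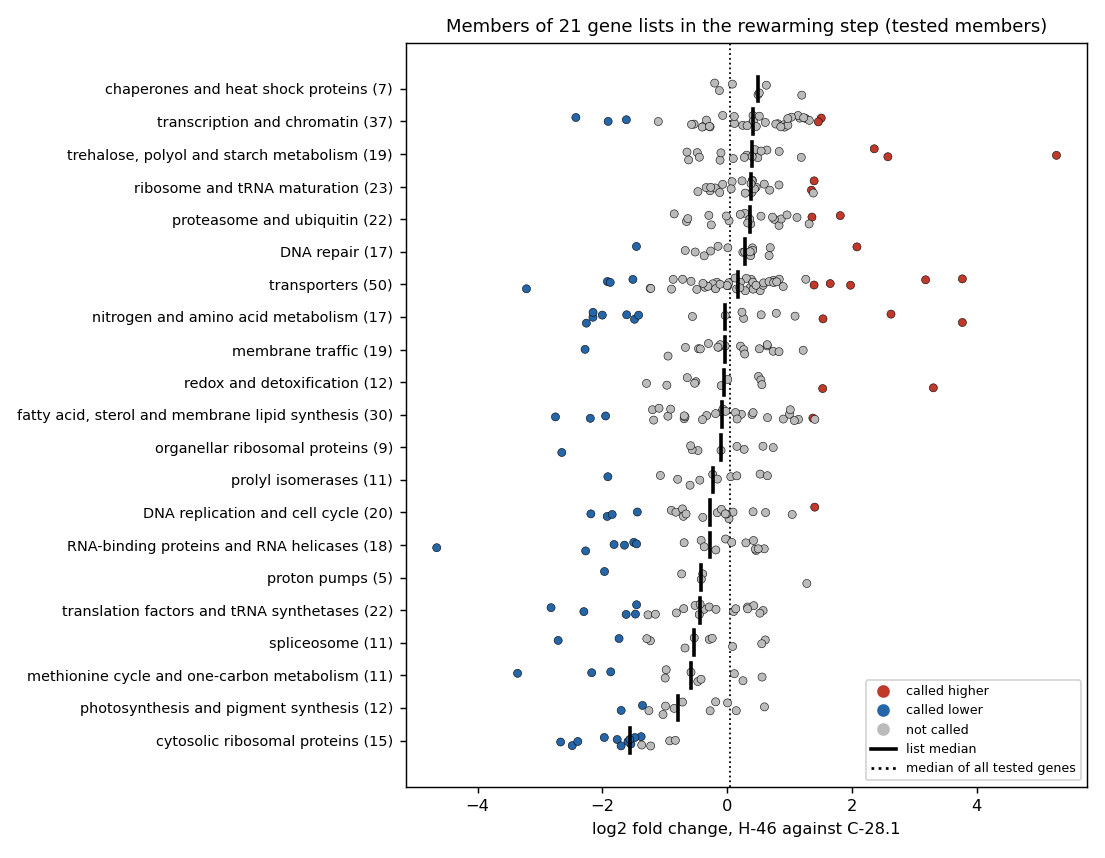
Log2 fold change of H-46 against C-28.1 for each tested member of 21 gene lists, sorted by list median (thick line), with members tested in parentheses and the median of all tested genes (0.05) as a dotted line. The 15 cytosolic ribosomal proteins all lie below 0 and 11 are called, while none of the 7 listed chaperones is called in either direction. Among all tested genes 6.61% are called lower and 13.3% in either direction.

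Translation factors followed the ribosomal proteins in part. Of 22 factors and tRNA synthetases 5 (22.7%) were called lower, against 6.61% of all tested genes, and none higher, with a median of -0.44. Elongation factor EF-1 alpha (Gs19840), which carries aminoacyl-tRNA to the ribosome, fell from 5427, 5794 and 5174 CPM to 1038 and 507 CPM (log2 fold change -2.82, SE 0.38, adjusted p = 0.000254). Initiation factor eIF-5A (Gs17370) fell from 1972, 2206 and 1726 CPM to 349 and 453 CPM (-2.30, SE 0.24). Subunit 9 of eIF-3 (Gs52990, -1.47), isoleucyl-tRNA synthetase (Gs38250, -1.62) and a poly(A) binding factor (Gs47930, -1.45) completed the set, and all 3 lost the call without H-46 culture C (-1.27, -1.30 and -1.18). Among 9 organellar ribosomal proteins the only call (11.1%) was 30S protein S1 (Gs56500), at 2905, 2870 and 2874 CPM in the cold and 336 and 583 CPM in the heat (-2.65, SE 0.31). The organellar list had a median of -0.10, well above that of the cytosolic proteins, though the sign of this median turned with library totals as the scale (0.08).

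RNA-binding proteins held the deepest of the named falls with an informative product name. The glycine-rich RNA-binding protein Gs13830, of a family that is induced by cold in plants, had 1508, 2716 and 2715 CPM at 28 °C. At 46 °C it had 85.7 and 97.9 CPM, a log2 fold change of -4.65 (SE 0.40, adjusted p = 2.27e-05), and the 2 warm cultures were nearly equal. In the H-42 libraries, which had 2 weeks at 42 °C, its mean was 406 CPM, between the cold and the 46 °C levels. A second glycine-rich protein, Gs37390, fell from 1384, 1972 and 1828 CPM to 302 and 416 CPM (-2.27, SE 0.32). Poly(A) binding protein Gs17430 (-1.65), RNA-binding protein Gs32310 (-1.81), an ATP-dependent RNA helicase (Gs34230, -1.50) and Gs47930 brought the list to 6 of 18 (33.3%) called lower, against 6.61% of all tested genes, and none higher (median -0.27). The call of Gs32310 was lost without H-46 culture A (-1.28, adjusted p = 0.0297), without each C-28.1 library in turn and without each H-42 library in turn, and that of the helicase without H-46 culture C (-1.18). Splicing factors of the arginine/serine-rich type fell too, SR7 (Gs33180) from 829, 1052 and 1085 CPM to 160 and 143 CPM (-2.71, SE 0.23) and SR2 (Gs28130) from 383, 557 and 525 CPM to 113 and 181 CPM (-1.73, SE 0.29). They were the 2 called members of 11 spliceosome genes (18.2% called lower), a list with a median of -0.53.

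In methionine and methyl group metabolism 3 enzymes fell. Methionine synthase (Gs34920), which makes methionine from homocysteine, was among the most counted genes of the cold libraries at 5523, 5845 and 4764 CPM. It dropped to 719 and 329 CPM at 46 °C (log2 fold change -3.36, SE 0.39, adjusted p = 0.000129), with both warm cultures far below the cold ones. S-adenosylmethionine synthetase (Gs03900), the next enzyme, fell from 1438, 2280 and 2201 CPM to 530 and 553 CPM (-1.87, SE 0.28). Adenosine kinase (Gs08210), which clears the adenosine that methylation leaves behind, fell from 1045, 1132 and 942 CPM to 203 and 259 CPM (-2.17, SE 0.23). Of 11 members these 3 (27.3%) were called lower, against 6.61% of all tested genes, and none higher, with a median of -0.58. A methyltransferase outside the list, Gs13930, fell from 185, 149 and 192 CPM to 22.3 and 13.1 CPM (-3.31, SE 0.34).

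In lipid synthesis 4 of 30 members were called, 13.3% as among all tested genes, with 3 lower and 1 higher and a median of -0.08. Acetyl-CoA carboxylase (Gs09490), which commits carbon to fatty acids, went from 663, 906 and 944 CPM to 245 and 189 CPM (log2 fold change -1.95, SE 0.24). 3-Oxoacyl-ACP synthase II (Gs14230), which lengthens the chain, went from 607, 745 and 778 CPM to 122 and 88.9 CPM (-2.75, SE 0.26, adjusted p = 5.05e-05). The delta-12 desaturase (Gs25760), which adds a double bond to oleate, went from 163, 134 and 111 CPM to 42.6 and 16.8 CPM (-2.19, SE 0.36). A fatty acid hydroxylase (Gs21360) rose (1.38), a call that was lost without H-46 culture A (1.28), without C-28.1 culture B (1.27) and with culture as a replicate block (1.31).

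In the lists for transcription and for photosynthesis and pigment synthesis, 2 sigma factors and 2 enzymes fell. RNA polymerase sigma factors steer the bacterial-type RNA polymerase of the plastid, and 2 of them were called lower. Gs17390 had 171, 204 and 207 CPM in the cold and 30.3 and 42.1 CPM in the heat (log2 fold change -2.42, SE 0.23), and Gs35420 had 376, 386 and 482 CPM and then 159 and 112 CPM (-1.61, SE 0.24). Protochlorophyllide reductase (Gs50980), of chlorophyll synthesis, fell from 245, 266 and 358 CPM to 96.4 and 82.3 CPM (-1.70, SE 0.24). Coproporphyrinogen III oxidase (Gs14610), of the shared pathway to heme and chlorophyll, fell from 66.7, 81.0 and 90.1 CPM to 37.7 and 24.2 CPM (-1.36, SE 0.24), and lost its call without H-46 culture C (-1.07), without C-28.1 culture C (-1.26) and when libraries were thinned to equal totals (-1.32). Those 2 enzymes were the called members (16.7%) of the 12 tested photosynthesis and pigment genes, whose median was -0.78, against 6.61% of all tested genes called lower. The 2 remaining members of that list of 14, both light-harvesting proteins, had too few counts to test.

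Calls in the remaining lists are to be read against all tested genes, of which 6.67% were called higher, 6.61% lower and 13.3% in all. Shares in membrane traffic, prolyl isomerases, transcription and transporters lay near these. In DNA replication and cell cycle 4 of 20 fell (20%) and 1 rose (5%), and the cell division control protein 42 homologue (Gs25940), a small GTPase, went from 153, 139 and 172 CPM to 25.3 and 42.7 CPM (log2 fold change -2.18, SE 0.26). DNA gyrase subunit A (Gs10570, -1.92), an enzyme of bacterial origin that untwists DNA, and the division protein FtsZ (Gs20120, -1.44) fell as well, FtsZ losing its call without H-46 culture C (-1.18). An MCM helicase subunit (Gs58830, -1.84) fell, and GINS subunit 4 (Gs55720, 1.40), which works with MCM at the replication fork, rose, with the rise lost without H-46 culture C (0.80, adjusted p = 0.0382), without each C-28.1 library in turn and with culture as a replicate block. Membrane traffic had 1 call in 19 (5.26%), an ADP-ribosylation factor (Gs10100) that fell from 51.9, 49.3 and 51.4 CPM to 8.03 and 12.9 CPM (-2.28, SE 0.28). Prolyl isomerases had 1 in 11 (9.09%; Gs30690, -1.91) and proton pumps 1 in 5, the vacuolar pyrophosphatase Gs15740, which fell from 1037, 1008 and 954 CPM to 315 and 197 CPM (-1.97, SE 0.26). Transcription and chromatin had 2 of 37 higher (5.41%) and 3 lower (8.11%), the latter including an H3/H4 histone acetyltransferase (Gs48070, -1.91), while another histone acetyltransferase rose (Gs35830, 1.51). Of 50 transporters 5 rose (10%) and 4 fell (8%), with an ABC transporter ATP-binding protein (Gs16000) falling from 212, 229 and 268 CPM to 23.9 and 26.9 CPM (-3.22, SE 0.28).

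Several of the strongest and most abundant fallers carried no informative product name. Gs25280, a hypothetical protein, had 5520, 8135 and 9125 CPM in the cold libraries and 124 and 206 CPM in the warm ones (log2 fold change -5.52, SE 0.67, adjusted p = 0.000161). Gs34310, also hypothetical, went from 2348, 2407 and 1954 CPM to 53.4 and 67.7 CPM (-5.21, SE 0.43), and Gs51980 from 4767, 7807 and 5040 CPM to 372 and 383 CPM (-3.96, SE 0.36). In all 3 genes the warm libraries lay more than 10-fold below the cold ones. Gs07910 was higher still in CPM, at 9088, 8751 and 7847 in the cold, and fell to 925 and 770 (-3.34, SE 0.27). Gs06500 (-3.78), Gs54190 (-3.52) and Gs47710 (-3.23) were the other fallers without a product name among the 10 largest with at least 10 counts in each of the 5 libraries. That ranking left out genes with fewer counts, and the lowest log2 fold change of any tested gene was -8.28. A dTDP-glucose dehydratase (Gs59080), an enzyme of nucleotide sugar synthesis, fell by 2.58 on the log2 scale. Gs11340 and Gs32860 were among the 4 called fallers with the most CPM but lay close to the fold minimum (-1.38 and -1.41), and both lost the call without H-46 culture C (-1.05 and -1.18), Gs11340 also without C-28.1 culture A (adjusted p = 0.0114) or culture C (adjusted p = 0.0133). The most counted risers were Gs09270, from 2770, 2410 and 3166 CPM to 13640 and 23320 CPM (2.73, SE 0.37), Gs32120, from 3616, 3643 and 3376 CPM to 20550 and 12730 CPM (2.23, SE 0.28), and Gs43600 (1.67, SE 0.23). CPM are not corrected for gene length, so these are ranks of reads and not of transcripts.

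Cultures A and C, each compared with its own cold library, moved in the same direction for all 832 called genes, which the call itself favours. Both cultures passed 2.5-fold for 526 of the called genes (63.2%), culture C alone for 226, culture A alone for 74 and neither for 6. The fall of called genes had a median of -1.62 in culture A and -1.97 in culture C, and the rise a median of 1.64 and 1.90, and 67.1% of the called genes changed more in culture C. Across all tested genes 903 passed 2.5-fold in culture A and 1297 in culture C, with 556 in both in the same direction and none in opposite directions. The changes correlated across the 6264 genes with a Pearson r of 0.75, given as a description since genes are not independent replicates. Some of the largest rises were uneven. IMP dehydrogenase rose by 2.75 in culture A and 4.44 in culture C, the acetate transporter by 2.20 and 3.62, and glycogenin-like Gs06400 by 5.63 and 4.54. The H-46 libraries differed by more than 2.5-fold from each other in 326 genes (5.20%), against 21 to 93 genes between pairs of C-28.1 libraries. Cultures A and C also differed by that much in 237 genes (3.78%) at C-28.2, so a wide spread was not particular to 46 °C. With 2 libraries at 46 °C, whether culture A or culture C is the unusual one was not tested.

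**Figure D3:**
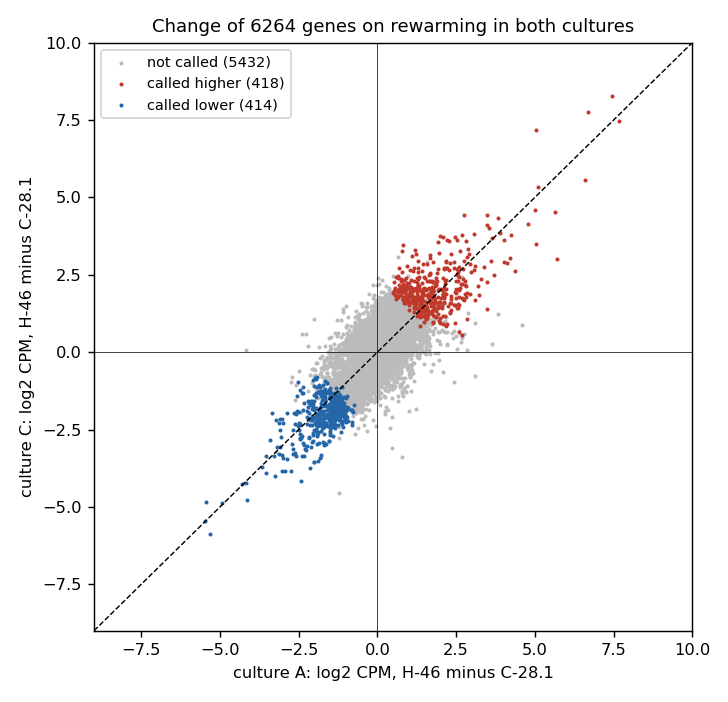
Change of each tested gene from C-28.1 to H-46 in log2 CPM (prior count 2) within culture A (x axis) and within culture C (y axis), with called genes coloured and the line of equal change dashed. All 832 called genes lie in the same quadrant for both cultures, and 67.1% changed more in culture C.

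The series holds a second heat and cold pair that shares no library with the rewarming step, H-42 (cultures B and C) against C-28.2 (cultures A and C), and it was used to ask whether the same genes stood apart there. This mirror comparison had 515 calls (8.22%), 231 higher and 284 lower in heat. Of the 418 genes that rose on rewarming, 395 (94.5%) were higher at 42 °C than in the later cold sampling, a direction shown by 49% of all tested genes, and 122 were called. Those 122 are 29.2% of the rewarming risers and 52.8% of the mirror risers, beside 3.69% called higher in the background. Of the 414 fallers, 407 (98.3%) were lower at 42 °C, shown by 51% of all genes, and 171 were called, which are 41.3% of the rewarming fallers and 60.2% of the mirror fallers (background 4.53%). The medians of the same genes were smaller there, 1.02 against 1.81 for the risers and -1.21 against -1.72 for the fallers. The genes had been chosen for their size in the rewarming step, which alone makes a smaller value elsewhere likely. Leaving out H-42 culture B or culture C cut the mirror calls to 189 or 148. The cultures, the scaling and the estimate of spread are common to both comparisons, so these are not wholly separate experiments.

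**Figure D4:**
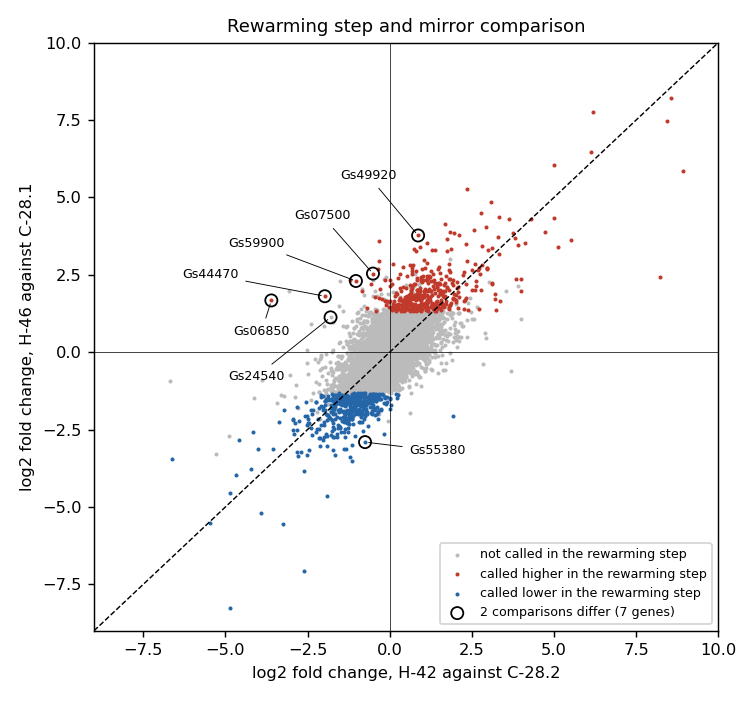
Log2 fold change of each tested gene in the rewarming step (y axis) against that in the mirror comparison (x axis), which use different libraries, with genes called on rewarming coloured and the line of equal change dashed. Circles mark the 7 genes whose 2 changes differ past the threshold, of which 6 lie above the line and 1 below it.

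The ribosomal proteins and the strongest risers had the same direction in the mirror libraries. All 15 cytosolic ribosomal proteins were lower at 42 °C than in C-28.2, a direction shown by 51% of all tested genes. Of the 15, 11 were called lower, against 4.53% of all tested genes, and the median of the 15 was -1.60. The study's lists that gave the product names drew on these samplings too, so for list members this is not independent evidence. Of all 384 tested list members 36 were called lower and 9 higher in the mirror comparison. Gs54440 (8.57), Gs10210 (8.45) and Gs51030 (6.20) were again far higher in heat, and glycerol dehydrogenase Gs57960 changed by 3.84. By contrast, several genes that moved on rewarming had small values in the mirror comparison, which does not by itself show a difference. Glutamine synthetase had -0.69 (adjusted p = 0.0822), sigma factor Gs35420 had -0.08 (adjusted p = 0.837) and the glycine-rich protein Gs37390 had -0.85 (adjusted p = 0.0657). For sigma factor Gs35420 the test of the difference itself gave an adjusted p of 0.0574. For Gs37390 that test gave 0.099, and for Gs13830 it gave 0.0339, neither under the 0.01 threshold.

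The difference between both comparisons was tested gene by gene, and 7 genes passed (0.112%), 6 with the more positive change on rewarming (0.0958%) and 1 with the more negative (0.016%). The only 1 of the 7 with a known product was the amino acid permease Gs49920, which rose by 3.77 on rewarming and had 0.87 in the mirror comparison (adjusted p of the difference = 0.00581). It had 30.1 CPM on average at H-42 and 16.6 CPM at C-28.2, so the level of 174 to 198 CPM was seen in the H-46 libraries only. The difference lost its call without any 1 of the C-28.1 libraries (adjusted p from 0.0217 to 0.0422 by the same test) and without either H-42 library. It was also lost without C-28.2 culture C (2.39), with libraries thinned to equal totals (adjusted p = 0.0111) and when tested against a 2.5-fold difference. Opposite calls were found in 3 genes, named here after their values were seen. Gs06850 and Gs44470 rose on rewarming (1.67 and 1.81) and were lower at 42 °C than in C-28.2 (-3.60 and -1.97), and Gs20530 fell (-2.05) and was higher at 42 °C (1.94). Gs20530 had under 8 CPM in each of the 5 libraries of the rewarming step and lost its call there without either H-46 library, without C-28.1 culture A or B and without either H-42 library. The 2 comparisons differ in temperature, in time at the high temperature and in what preceded it, and these cannot be told apart. By an unadjusted p below 0.05, 1401 genes differed, and DESeq2 called 151 in place of 7.

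Some called genes lay next to each other. In the gene order of the RefSeq annotation 11 runs of at least 3 neighbours were called in the same direction, 7 of them higher and 4 lower. They held 36 of the 828 called genes placed in that order, with at most 4 in a run. Whether this is more than a random order would give was not tested. The runs were found after the values were seen and are given as a description. One run joined primary-amine oxidase (Gs49900), Gs49910 (log2 fold change 2.12), the amino acid permease (Gs49920) and Gs49930 (1.39). In another the MFS transporter Gs29280, of a large family of solute carriers, rose by 1.98 between Gs29270 (2.33) and Gs29290 (2.24). A falling run held an adenine nucleotide carrier (Gs34210, -1.51), ribosomal protein S6e (Gs34220, -1.59), the RNA helicase Gs34230 (-1.50) and Gs34200 (-3.46). The strongly induced Gs51030 stood between Gs51020 (1.83) and Gs51040 (3.78), whose levels at 46 °C were 13.7 and 14.6 CPM and 38.1 and 71.2 CPM. Leaving out H-46 culture C ended the calls of Gs49930 (1.27), Gs34210 (-1.30), Gs34230 (-1.18) and Gs51020 (adjusted p = 0.0258), the last also lost without any other H-46, H-42 or C-28.1 library. The library kit does not mark strand, so reads from overlapping neighbours cannot be separated.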

How the data were processed

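RNA sequencing libraries (Illumina TruSeq RNA v2, paired-end) of 9 samples were grouped by the sampling and culture letter in their labels. The deposited values are whole-number read counts by gene that the authors had not normalized. The paper's Methods describe Trimmomatic trimming and STAR mapping for splicing and do not tie them to these counts, and their annotation and handling of reads with several matches are not given in the sources used here, so near-identical genes are uncertain. Depth is given in the report and limits genes with few counts.

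Counts were TMM-scaled and tested with edgeR 4.0.16 (R 4.3.3, limma 3.58.1) by the quasi-likelihood method on a model of 4 samplings over 9 libraries, after filterByExpr, with calls at p below 0.01 after Benjamini-Hochberg adjustment and a change over 2.5-fold. SE is the log2 fold change over the square root of F. The mirror comparison and the difference used the same model. Changes within a culture are log2 CPM with a prior count of 2, untested.

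Product names came from the study's supplementary lists of spliced introns and differentially expressed genes (1164 genes, 771 not hypothetical), sorted into 21 lists (386 genes) by words in the name. The lists' own fold changes and coverages were not used, and the column names of the expression list run opposite to the GEO labels for most genes, a doubt about direction that was not settled here. RefSeq (assembly ASM34128v1) gave gene order for 6510 genes. No sequence was used, so promoters were not searched for heat shock elements. Named genes were, among called genes with at least 10 counts in each of the 5 libraries and no overlap, the 10 largest changes in each direction with and without a product name. Added to them were the 4 called genes with most CPM in each direction, 2 called members per list (or the member with most CPM), genes named heat shock, the 4 largest differences from the mirror comparison and 9 genes used for the series. Further list members, neighbours and genes with opposite calls were named after their values were seen. Members, lists and rules were chosen with earlier results of these data known.

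The same cultures were sampled repeatedly according to the Methods, so letters pair libraries. Deviations from the sampling mean correlated between C-28.1 and H-46 at 0.21 for culture A, 0.078 for culture C and 0.215 for culture B with culture C. These values cannot test the pairing. The 2 H-46 libraries deviate from their mean by equal and opposite amounts, so each value recurs with its sign turned for the other H-46 library. The pairing thus comes from the Methods and not from these values. Within a sampling no pair of libraries agreed within sampling noise (chi-square per degree of freedom 12.6 to 74.2). P-values rest on a spread between libraries of the same sampling that was pooled over all samplings, and H-46 has 2 libraries. The pool includes the closer H-42 pair, with a root mean square difference of 0.275 on the log2 scale against 0.687 in H-46. The main model treats repeated samples of a culture as independent. Its p-values therefore do not measure the spread of the change within cultures. Fits were tested on simulated data. Alternatives were DESeq2 1.42.0, other scalings, filters and thresholds, a replicate block, subsets of libraries, thinning to 4389066 counts (added after the totals were seen) and leaving out each library.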

Additional observations from a re-analysis of the deposited data

Results flagged for a closer look

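The 7 genes below changed differently in the rewarming step and in the mirror comparison of H-42 with C-28.2, by edgeR's quasi-likelihood test of the difference itself. Values are the rewarming log2 fold change minus the mirror log2 fold change. The difference was 5.27 for Gs06850 (adjusted p = 0.00117), 3.78 for Gs44470 (0.0012), 3.33 for Gs59900 (0.00792), 3.05 for the hypothetical protein Gs07500 (0.000785), 2.93 for Gs24540 (0.00195), 2.91 for the amino acid permease Gs49920 (0.00581) and -2.15 for Gs55380 (0.00581). Gs07500 had 29.7, 29.6 and 29.5 CPM in the 3 C-28.1 libraries and 183 and 162 CPM in the H-46 libraries, but 74.6 CPM on average at H-42 and 106 CPM at C-28.2. Gs55380 had 219, 200 and 200 CPM in C-28.1 and 25.7 and 29.3 CPM in H-46, with 62.7 CPM at H-42 and 105 CPM at C-28.2. Gs59900 rose by 2.30 on rewarming, from 5.48, 8.65 and 5.11 CPM to 33.5 and 31.0 CPM, and had 35.3 CPM on average at C-28.2. Gs24540 was not called on rewarming (1.13) and was lower at H-42 than at C-28.2 (-1.80). All 7 lost their call without H-42 culture B or without H-42 culture C, where 1 library of H-42 remained. Gs49920, Gs55380 and Gs59900 also lost it without any 1 of the C-28.1 libraries (adjusted p from 0.0107 to 0.0501), and Gs24540 without C-28.1 culture B (0.0107). With culture as a replicate block Gs59900 was not called (0.0198), nor was Gs55380 with library totals (0.0116), and testing against a 2.5-fold difference left Gs06850 and Gs07500. None of the groups had enough libraries for a check of single outlying samples.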

How the results depend on the processing

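The 832 rewarming calls became 896 with DESeq2 (825 shared), 831 with RLE factors, 838 without a low-count filter, 769 with at least 10 counts in every library and 831 after thinning. With culture as a replicate block there were 825 calls (776 shared), and 578 and 9 for the mirror comparison and the difference. In the 4 paired libraries of cultures A and C with the block there were 843, and in the 5 libraries alone 809. Shared calls kept their direction in every fit. For the rewarming calls the threshold moved the count most. At an adjusted p below 0.01 without a fold minimum there were 1613 rewarming calls, 925 mirror calls and 127 called list members in place of 75. Testing against a 2.5-fold change with glmTreat gave 115, 66, 19 and, for the difference, 2, and left 3 of the 11 ribosomal protein calls, because it asks that the change exceed 2.5-fold beyond its error. For the difference, 7 calls became 151 with DESeq2 and 51 at an adjusted p below 0.05, and the cause was not tested.

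Leaving out 1 library gave 672 to 1148 rewarming calls, 148 to 584 mirror calls, 0 to 26 for the difference, 71 to 90 list members, 9 to 15 ribosomal proteins, and 93.3 to 97.7% of rewarming calls with the same direction in the mirror comparison (96.4% with all libraries). Where a sampling kept 1 library, it was assumed to vary like the others. Of the 132 called genes examined singly, 98 kept their call under every alternative but glmTreat, and no direction reversed. Of 861 counts per list under alternatives, 776 were within 1.5 times the main count. Product names from RefSeq alone could not be run, since the table used holds none.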
